A study of Mus musculus with 12 samples.

Results

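The genes described here are the output and accessory repressor genes of the circadian clock, measured in kidney of female mice. They are Dbp, Tef, Hlf, Nfil3, Ciart, Bhlhe40, Bhlhe41, Nr1d1 and Nr1d2. They were chosen by name, with earlier results of these data known. A count of calls among them therefore cannot test an excess over all genes. All 9 of them were found among the 19938 genes that a probe set with a single gene symbol represented. The 12 arrays fall into 3 groups of 4. The first group was wild type, C57BL/6, and was killed 1 hour after recombinant FGF23 at 500 ng per g body weight was injected into the peritoneum. The second group was KL null, labelled 129/SvEv/C57BL/6, and received saline vehicle by the same route. The third group was wild type, C57BL/6, and received 100 µl of saline vehicle. The KL null mice received the same volume, and both vehicle groups were also killed 1 hour after injection. All mice had been kept for 5 to 8 weeks on standard diet. Wild-type mice are described as littermates in the protocol, but the strain label differs between genotypes, so genotype and strain cannot be told apart. FGF23 is a phosphate-lowering hormone from bone, and klotho, the product of Kl, is its co-receptor in the kidney. The hour of day at which the mice were injected and killed is not given in the sources used here, so its part in any difference between groups was not tested.

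The circadian clock of mammalian cells is a transcriptional loop in which CLOCK and BMAL1, the product of Arntl, activate genes through E-boxes in their promoters. The PER and CRY proteins made from such genes inhibit CLOCK and BMAL1. DEC1 and DEC2, encoded by Bhlhe40 and Bhlhe41, repress through the same E-boxes, and CIART, also called CHRONO, represses CLOCK and BMAL1 directly. The nuclear receptors REV-ERB alpha and beta, encoded by Nr1d1 and Nr1d2, repress Arntl and other genes that carry their response element, and Nfil3 is among them. DBP, TEF and HLF are the PAR bZIP activators of D-box genes, and NFIL3 is a repressor of the same D-boxes. In the mouse kidney and liver, the PAR bZIP factors are known as regulators of detoxification and transport genes.

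Promoter sequences are shown for the members with a clock element in the bases before the start site, because these are the sequences through which the loop is known to act. Windows of 300 bases, from 250 before to 50 after a start site, were matched by symbol for 8 of the 9 members, all but Bhlhe40, in the RefSeq promoters of GRCm38.p6. Tef had windows for 2 start sites, so there were 9 windows. The motifs were searched on both strands, and a palindrome was counted once. They were the E-box CACGTG, the D-boxes TTATGTAA and TTACGTAA, the REV-ERB and ROR element TAGGTCA and the cyclic AMP element TGACGTCA. Capitals mark the matches. The 250 bases before the Ciart start are printed whole, and 60 bases are printed for each of the others.
Ciart, chr3:95882229-95882478, minus strand: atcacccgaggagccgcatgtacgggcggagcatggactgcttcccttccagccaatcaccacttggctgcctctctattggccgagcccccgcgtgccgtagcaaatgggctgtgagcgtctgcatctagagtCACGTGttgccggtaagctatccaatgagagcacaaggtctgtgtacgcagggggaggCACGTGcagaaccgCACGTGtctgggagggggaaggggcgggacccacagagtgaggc
Bhlhe41, chr6:145865541-145865600, minus strand: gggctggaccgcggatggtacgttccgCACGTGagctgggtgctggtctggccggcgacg
Tef, upstream start site, chr15:81802519-81802578, plus strand: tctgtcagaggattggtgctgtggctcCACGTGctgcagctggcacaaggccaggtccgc
Tef, downstream start site, chr15:81811249-81811308, plus strand: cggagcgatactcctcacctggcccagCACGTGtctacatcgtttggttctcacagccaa
Nfil3, chr13:52981040-52981099, minus strand: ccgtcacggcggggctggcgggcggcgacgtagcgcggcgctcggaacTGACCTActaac

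The Ciart window held 3 E-boxes, which begin at positions -116, -58 and -44 counted from the start site. Of all 32851 windows, 7.15% held at least 1 E-box and 0.0883% held 3 or more. Bhlhe41 had 1 E-box at -153, and both Tef start sites had 1, at -127 and -138. Nfil3 held the REV-ERB and ROR element on the opposite strand at -12, an element found in 2.61% of windows. The Nfil3 gene is annotated at chr13:52967209-52982878, so this start site lies inside the gene and not at its upstream end. The start sites of the Ciart and Dbp windows also lie inside their annotated genes. The Hlf window held a cyclic AMP element at -9, which 1.79% of windows held. None of these motifs was in the windows of Dbp, Nr1d1 and Nr1d2, and the D-boxes, present in 1.06% of all windows, were in 0 of the 9. Such matches describe letters in a short window and say nothing of binding.

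Values are log2 RMA signals made by the authors. A difference of 1 is a doubling of signal, and groups are compared only within a probe set. Differences were tested with limma in 1 fit over the 12 arrays. A call means an adjusted p below 0.05, by Benjamini-Hochberg over the 19938 genes. Precision is limited by how few arrays each group has. The labels do not say whether each replicate was a separate mouse, so p-values measure the spread between these arrays. Kl averaged 9.72 ± 0.07 in KL null, 10.51 ± 0.08 with FGF23 and 10.61 ± 0.13 with vehicle in wild type (SD, n = 4 each). It was 1.85-fold lower in KL null than in wild type given vehicle (adjusted p = 1.75e-05), without overlap. Where the probe set lies relative to the deleted part is not given in the sources used here, and this signal does not show that the transcript is absent. Egr1, an immediate early gene, averaged 9.34 ± 0.35 with FGF23 and 6.16 ± 0.17 with vehicle. The 7 proximal tubule markers had a mean log2 signal between 11.83 and 12.53 on every array. The spread of log2 values over all probe sets was lowest on 4 arrays, WT FGF23 replicates 1 and 2 (SD 2.166 and 2.167) and KL null replicates 1 and 2 (2.195 and 2.217), against 2.23 to 2.281 on the other 8.

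One hour after FGF23, Bhlhe40 rose in wild-type kidney and was the only one of the 9 genes called. Its signal was 9.04, 9.44, 9.57 and 9.85 on the FGF23 arrays, against 8.65, 8.62, 8.81 and 8.44 on the vehicle arrays. All 4 FGF23 arrays lay above all 4 vehicle arrays. The increase was 1.80-fold (log2 difference 0.84, SE 0.144, 95% interval 0.54 to 1.15, adjusted p = 0.047). Of all genes 0.0853% were called in this comparison, 0.0802% higher and 0.00502% lower. The call stood close to its threshold. It was lost when any 1 of 11 arrays was left out, all but WT FGF23 replicate 1, and its adjusted p was highest at 0.175 without WT FGF23 replicate 2. Over 25 alternatives the log2 difference stayed between 0.72 and 1.08, while the adjusted p lay between 0.00456 and 0.23. In whole kidney RNA, a change in the number of cells of a type and a change in RNA per cell cannot be told apart.

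Bhlhe40 has long been known as an early response gene as well as a clock repressor, and it moved here beside other immediate early genes. Of 17 listed immediate early genes 4 rose after FGF23 (Egr1, Junb, Ier2 and Zfp36), 0 fell and 13 did not pass. Of all genes 0.0802% rose. The median log2 difference of the list was 0.29, against 0.04 over all genes. The mean log2 signal of that list was 7.01 to 7.11 on the FGF23 arrays and 6.40 to 6.68 on the vehicle arrays. The 13 listed glucocorticoid-responsive and handling genes, of which Per1 is also a core clock gene, had a mean of 8.18 to 8.83 with FGF23 and 7.88 to 8.4 with vehicle. None of those 13 was called by limma, and 4 had an unadjusted p below 0.05, as did 15.4% of all genes. The part of both lists in the change of Bhlhe40 was not tested. The paralogue Bhlhe41 averaged 5.54 ± 0.09 with FGF23 and 5.26 ± 0.31 with vehicle, and the groups overlapped (log2 difference 0.28, adjusted p = 0.434).

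The other 8 members did not pass the test after FGF23, although 8 of the 9 had a positive difference. An unadjusted p below 0.05 was found for 6 of the 9, Bhlhe40 included, and for 15.4% of all genes. Their median log2 difference was 0.28, against 0.04 over all genes. In 3 members, Tef, Hlf and Bhlhe40, the groups did not overlap and FGF23 was higher, and 4.09% of all genes showed the same. Ciart had the widest spread. It was at 7.97, 7.73, 6.40 and 6.81 with FGF23, against 6.00, 5.84, 5.60 and 6.40 with vehicle. FGF23 replicates 1 and 2 were the high ones, and replicate 3 equalled the highest vehicle array. The log2 difference of Ciart was 1.27 (SE 0.346, 95% interval 0.53 to 2.01, adjusted p = 0.241). Without FGF23 replicates 1 and 2, which are also the arrays of lowest spread, it was 0.65. A second Ciart probe set, not used for the gene's value, gave 0.852 when every probe set was tested (adjusted p = 0.265).

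Among the PAR bZIP activators, Dbp was at 9.10, 9.16, 8.80 and 8.92 with FGF23, against 7.98, 8.54, 8.18 and 9.0 with vehicle. Vehicle replicate 4 lay within the range of the FGF23 arrays, while the other 3 vehicle arrays lay below them (log2 difference 0.57, adjusted p = 0.241). Without that array the difference was 0.76 and the adjusted p 0.0653. Tef averaged 9.41 ± 0.06 with FGF23 and 9.15 ± 0.12 with vehicle (log2 difference 0.26, adjusted p = 0.287). Hlf averaged 9.04 ± 0.07 with FGF23 and 8.81 ± 0.18 with vehicle (0.23, adjusted p = 0.316). Nfil3, their repressor counterpart, averaged 7.04 ± 0.30 with FGF23 and 7.13 ± 0.37 with vehicle (-0.09, 95% interval -0.50 to 0.31, adjusted p = 0.824).

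Of the REV-ERB genes, Nr1d2 averaged 9.98 ± 0.11 with FGF23 and 9.69 ± 0.17 with vehicle (log2 difference 0.30, adjusted p = 0.252), and 3 of 4 FGF23 arrays lay above all vehicle arrays. Nr1d1 averaged 10.03 ± 0.23 with FGF23 and 9.84 ± 0.19 with vehicle (0.18, 95% interval -0.14 to 0.51, adjusted p = 0.55). The sign of the Nr1d1 difference turned, to -0.04, with the array spread as a covariate.

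**Figure D1:**
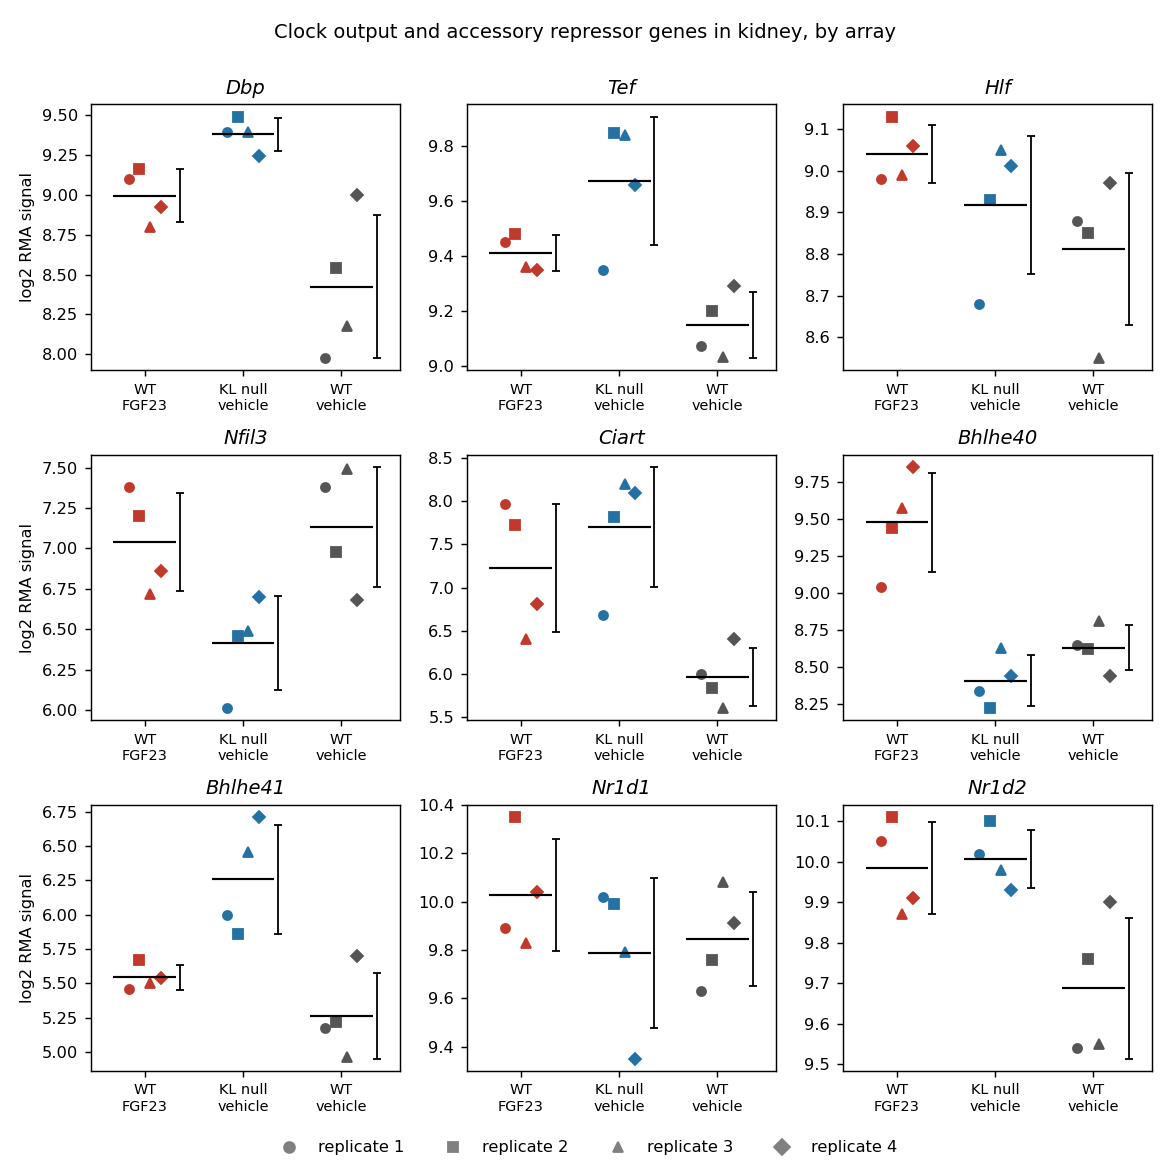
Log2 RMA signal (y axis) of the 9 genes on each of the 12 arrays, by group (x axis). Symbols mark the replicate number, horizontal lines the group mean and bars the SD of 4 arrays. The 4 FGF23 arrays of Bhlhe40 lie at 9.04 to 9.85, above the other 8 arrays, and the 4 KL null arrays of Dbp, Ciart and Bhlhe41 lie above all vehicle arrays of wild type.

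Among mice given vehicle, KL null and wild-type kidneys differed in more of the 9 genes. In KL null Ciart, Dbp, Bhlhe41 and Tef rose, Nfil3 fell, and Bhlhe40, Hlf, Nr1d1 and Nr1d2 did not pass. Thus 5 of the 9 genes were called, where 8.01% of all genes were called in this comparison, 3.58% higher and 4.44% lower. Because the 9 were chosen with earlier results known, this count does not test an excess. The median log2 difference of the 9 was 0.32, against 0.02 over all genes. In 5 members the 4 KL null arrays lay above all 4 wild-type vehicle arrays (Dbp, Tef, Ciart, Bhlhe41 and Nr1d2), which 6.35% of all genes did.

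Among the repressors, Ciart had the largest change of the 9. It was at 6.68, 7.82, 8.20 and 8.10 in KL null, against 6.00, 5.84, 5.60 and 6.40 in wild type. KL null replicate 1 was far below the other KL null arrays and close to the highest wild-type array. The increase was 3.34-fold (log2 difference 1.74, SE 0.346, 95% interval 1.0 to 2.48, adjusted p = 0.00651). Without KL null replicate 1 the log2 difference was 2.08. The second Ciart probe set gave 1.54 when every probe set was tested (adjusted p = 0.00711).

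Bhlhe41 was at 6.00, 5.86, 6.46 and 6.71 in KL null, against 5.17, 5.22, 4.96 and 5.70 in wild type. The lowest KL null array stood just above wild-type replicate 4, the highest of its group. The gene was 1.99-fold higher in KL null (log2 difference 1.0, SE 0.175, 95% interval 0.62 to 1.37, adjusted p = 0.00289). Its mean over the 12 arrays was 5.688, the lowest of the members, and 36.9% of genes had a lower mean. Whether a signal this dim was above background is unknown. Bhlhe40 was at 8.34, 8.22, 8.63 and 8.44 in KL null, against 8.65, 8.62, 8.81 and 8.44 in wild type. Those groups overlapped, and the difference of -0.22 did not pass (95% interval -0.53 to 0.09, adjusted p = 0.425).

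Dbp, a PAR bZIP gene that cycles with a large amplitude in many tissues, was at 9.39, 9.49, 9.39 and 9.24 in KL null, against 7.98, 8.54, 8.18 and 9.0 in wild type. The KL null arrays were tightly grouped and the wild-type arrays were not (SD 0.10 and 0.45). The increase was 1.94-fold (log2 difference 0.95, SE 0.167, 95% interval 0.60 to 1.31, adjusted p = 0.0029). Tef was at 9.35, 9.85, 9.84 and 9.66 in KL null, against 9.07, 9.20, 9.03 and 9.29 in wild type, a 1.44-fold increase (log2 difference 0.53, SE 0.107, adjusted p = 0.00752). As for Ciart, KL null replicate 1 was the lowest of its group. Hlf, the third activator, averaged 8.92 ± 0.17 in KL null and 8.81 ± 0.18 in wild type (0.10, 95% interval -0.12 to 0.33, adjusted p = 0.64).

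Nfil3, the D-box repressor, moved the other way. It was at 6.01, 6.46, 6.49 and 6.70 in KL null, against 7.38, 6.98, 7.49 and 6.68 in wild type. Wild-type replicate 4 lay just below the highest KL null array, so the groups overlapped by 1 array. The gene was 1.64-fold lower in KL null (log2 difference -0.72, SE 0.189, 95% interval -1.12 to -0.31, adjusted p = 0.0301). The call did not hold without WT vehicle replicate 1 (adjusted p = 0.0988) or 3 (0.108), nor without KL null replicate 1 (0.074), 2 (0.063) or 3 (0.065). Over the 25 alternatives its adjusted p lay between 0.0077 and 0.124.

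The REV-ERB genes, whose products repress Arntl and Nfil3, did not pass. Nr1d2 averaged 10.01 ± 0.07 in KL null and 9.69 ± 0.17 in wild type, with no overlap (log2 difference 0.32, SE 0.095, 95% interval 0.12 to 0.52, adjusted p = 0.0518). Of 25 alternatives, 6 gave a call, and leaving out WT vehicle replicate 4 was one of them (adjusted p = 0.0214, and 0.0146 to 0.189 over the 25). Nr1d1 averaged 9.79 ± 0.31 in KL null and 9.84 ± 0.19 in wild type (-0.06, 95% interval -0.38 to 0.27, adjusted p = 0.889). Its sign turned without WT vehicle replicate 3 (0.02) or KL null replicate 4 (0.09).

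Cell type markers moved in the same comparison, in which 3.58% of all genes rose and 4.44% fell. Of 7 proximal tubule markers 6 fell in KL null, and their mean log2 signal was 11.83 to 12.03 in KL null and 12.38 to 12.53 in wild type. Of 9 immune cell markers 3 rose (Cd68, Lyz2 and Itgam) and 1 fell (Csf1r), with a mean of 6.80 to 7.31 in KL null and 6.46 to 6.92 in wild type. Elsewhere Hsd3b1 of 8 adrenal gland markers rose, while Slc12a3 of 5 loop and distal tubule markers, Podxl of the 2 podocyte markers measured, and Alb and Ttr of 3 liver markers fell. None of the collecting duct (4), adipocyte (5), skeletal muscle (3) and erythroid (1 measured) markers was called by limma, and in these 4 lists together only 1 had an unadjusted p below 0.05, a collecting duct marker. After FGF23 none of the markers in these lists was called, where only 0.0853% of all genes were. The proximal tubule markers were nonetheless at a mean of 12.28 to 12.34 with FGF23, below the 12.38 to 12.53 with vehicle. Of the 7, 0 had a positive difference, and the median log2 difference was -0.14, against 0.04 over all genes. The glucocorticoid-responsive and handling genes had a mean of 7.70 to 8.83 in KL null, and 7.88 to 8.40 in wild type, and 1 of 13 rose, Nfkbia. The part of these changes in the clock genes was not tested.

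**Figure D2:**
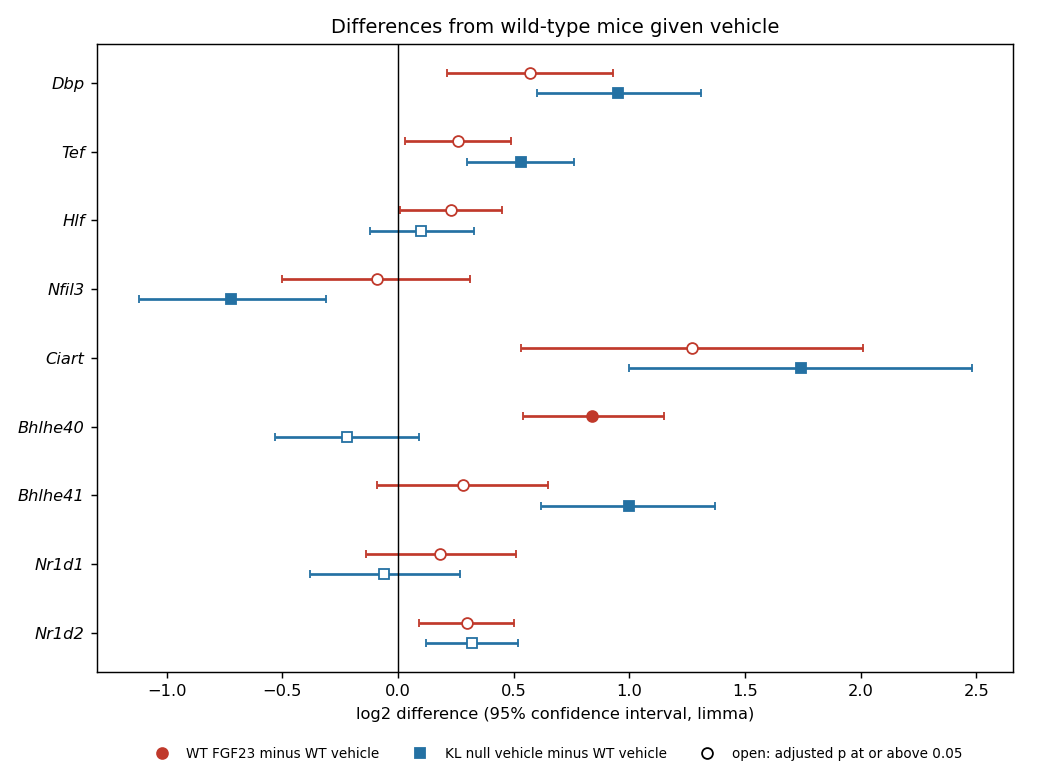
Log2 difference from wild-type mice given vehicle (x axis, with the 95% confidence interval of the limma fit) for each of the 9 genes (y axis), after FGF23 (red circles) and in KL null (blue squares). Filled symbols passed the test. Bhlhe40 is the filled red circle, at 0.84, and the filled blue squares are Dbp, Tef, Nfil3, Ciart and Bhlhe41, between -0.72 and 1.74.

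Both comparisons use the same 4 vehicle arrays, so their values are not independent. The difference between the effect of FGF23 and that of the KL null genotype is the direct difference between the FGF23 and KL null arrays, in which treatment and genotype both differ. In it 3 of the 9 genes were called, where 12% of all genes were, 5.25% higher with FGF23 and 6.72% lower. Bhlhe40 was higher with FGF23 than in KL null by 1.07 on the log2 scale (95% interval 0.76 to 1.38, adjusted p = 0.000403), and it was called in all 25 alternatives. Its paralogue Bhlhe41 was lower with FGF23 than in KL null, with a log2 difference of -0.72 (95% interval -1.09 to -0.34, adjusted p = 0.0161). That call did not hold without KL null replicate 3 (adjusted p = 0.0595, and 0.00437 to 0.0818 over the alternatives). Nfil3 was higher with FGF23 than in KL null by 0.62 (adjusted p = 0.0436), a call kept in 11 of 25 alternatives (log2 difference 0.20 to 0.73, adjusted p 0.0257 to 0.663). The difference was 0.38 without both WT FGF23 arrays of low spread (adjusted p = 0.391) and 0.20 without the 4 arrays of low spread (0.663). With the replicate number as a block, in which same-numbered FGF23 and KL null arrays deviated together, the Nfil3 call was lost (adjusted p = 0.0591). It was lost without any 1 of 7 arrays, which were WT FGF23 replicates 1, 2 and 4 (0.122, 0.119 and 0.058), KL null replicates 1, 2 and 3 (0.0976, 0.0763 and 0.0865) and WT vehicle replicate 2 (0.0523).

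The order of the 3 group means differed between members. For Dbp, Tef, Ciart and Bhlhe41 it ran KL null, FGF23, wild-type vehicle, from high to low. In Dbp, Tef and Ciart the middle level, that of FGF23, did not pass the test against either neighbour, with adjusted p of 0.154, 0.123 and 0.401 against KL null. Some alternatives gave a call there. Ciart had a log2 difference between FGF23 and KL null of -0.47, which was -1.54 without the 4 arrays of low spread (adjusted p = 0.00324) and -0.90 with array quality weights (0.0471). Its second probe set gave -0.688 when every probe set was tested (adjusted p = 0.16). Tef passed without KL null replicate 1 (0.0152) and with array quality weights (0.0189), and Dbp with only these groups fitted (0.0373). Over the 25 alternatives the adjusted p was 0.00324 to 0.708 for Ciart, 0.0152 to 0.311 for Tef and 0.0373 to 0.338 for Dbp. In Bhlhe41 it passed against KL null and not against vehicle. For Bhlhe40 the order was FGF23, vehicle, KL null, and the last pair did not pass. For Nfil3 the order was vehicle, FGF23, KL null, and the first pair did not pass. Nr1d2 had KL null at 10.01 and FGF23 at 9.98 above vehicle, and no pair of neighbours passed. The same held for Hlf and Nr1d1, both highest with FGF23.

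The other genes of the clock were taken from a list of 18 core loop genes, of which 15 were measured. Like the members, this list and the next were chosen with earlier results of these data known. After FGF23 0 of the 15 passed by limma, where 0.0853% of all genes did, and 10 were positive. An unadjusted p below 0.05 was found for 4 of the 15 and for 15.4% of all genes. The median log2 difference was 0.12, against 0.04 over all genes. The smallest p-values were those of Per3 (0.50, adjusted p = 0.241) and Per2 (0.59, adjusted p = 0.252). In KL null 4 rose (Per2, Per3, Cry1 and Cry2), 1 fell (Arntl) and 10 did not pass. Of all genes 3.58% rose and 4.44% fell there. The median was 0.10, against 0.02 over all genes. Arntl, which encodes BMAL1, was at 6.19, 5.59, 6.10 and 5.70 in KL null, against 7.31, 6.82, 7.43 and 6.26 in wild type (log2 difference -1.06, adjusted p = 0.00646). Wild-type replicate 4 was again close to the KL null arrays, as it was for Dbp and Nfil3. Cry2 had a log2 difference of 0.94 (adjusted p = 0.00125), Per3 of 0.93 (0.00134), Per2 of 0.81 (0.0187) and Cry1 of 0.76 (0.034).

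A second list held 24 genes that cycle in many mouse tissues or are known targets of the PAR bZIP or REV-ERB factors, and 19 were measured. After FGF23 0 of the 19 passed by limma, where 0.0853% of all genes did. An unadjusted p below 0.05 was found for 5 of the 19 and for 15.4% of all genes. The median log2 difference was 0.08, against 0.04 over all genes. Smallest in p were Avpr1a, a vasopressin receptor gene (-0.37), and Lonrf3 (0.44), both with an adjusted p of 0.241. In KL null 4 rose and 2 fell, where 3.58% of all genes rose and 4.44% fell. The median was 0.03, against 0.02 over all genes. Tspan4, which cycles in many tissues, rose by 0.74 (adjusted p = 0.000875) and Nampt, the rate-limiting enzyme of NAD salvage and an E-box gene, by 0.64 (0.00453). Nr1i3, the nuclear receptor CAR and a PAR bZIP target in mouse liver, rose by 0.52 (0.01) and Lonrf3 by 0.50 (0.0259). Ces2e and Avpr1a fell, with log2 differences of -0.60 (0.0324) and -0.39 (0.0298).

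**Figure D3:**
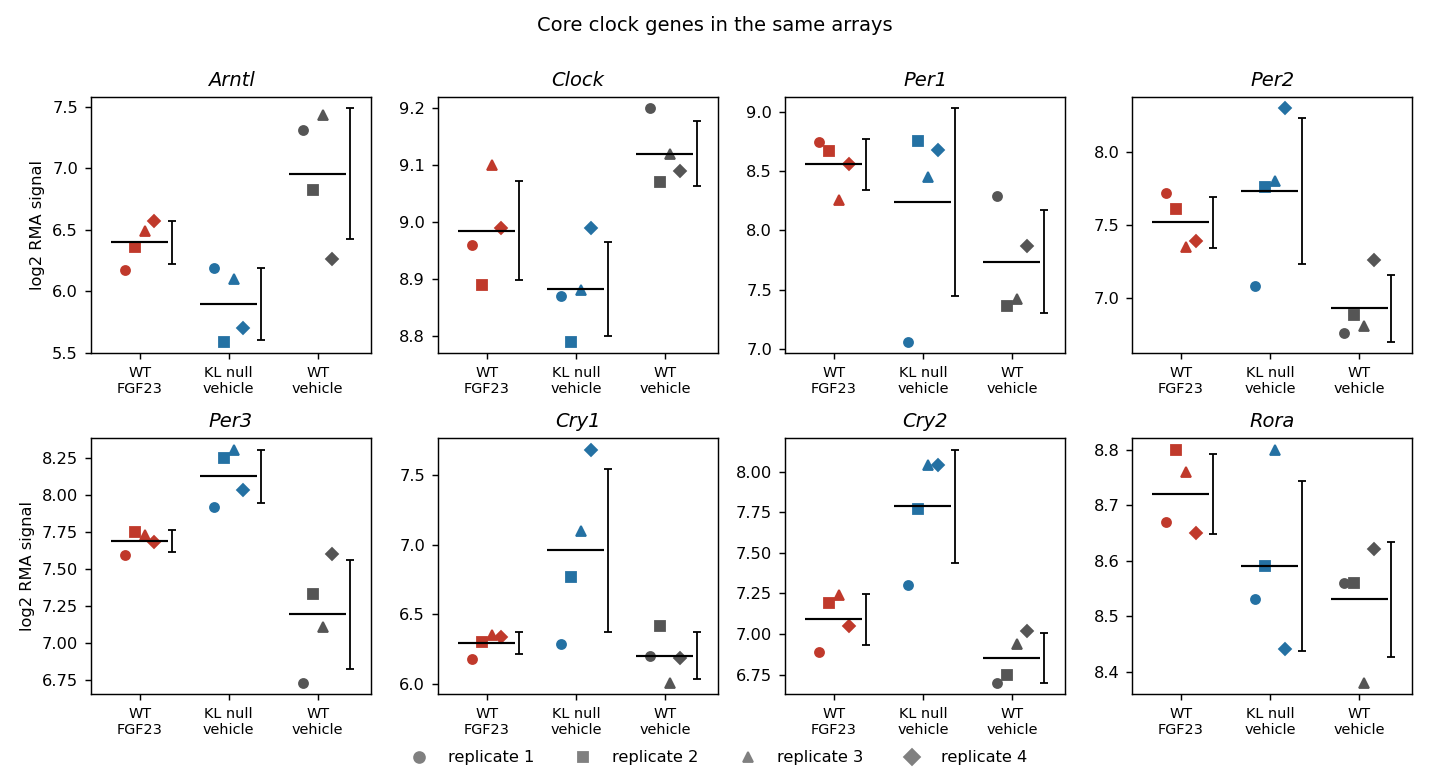
Log2 RMA signal (y axis) of 8 core clock genes on the 12 arrays, by group (x axis), with symbols, mean lines and SD bars as for the members. The KL null arrays of Arntl lie at 5.59 to 6.19, below all vehicle arrays of wild type, and Per3 and Cry2 are highest there, at 7.92 to 8.30 and 7.30 to 8.04.

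The arrays of 1 group differed among themselves in these genes. WT vehicle replicate 4 was the highest vehicle array for 6 of the 9 members and the lowest for 2, Nfil3 and Bhlhe40. WT FGF23 replicate 2 was the highest FGF23 array for 6 members, and replicate 3 the lowest for 5. KL null replicate 1 was the lowest KL null array for 4 members, Tef, Hlf, Nfil3 and Ciart. The same counts were not made over all genes, so they do not set the members apart from other genes.

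Deviations from the group means show which members varied together within groups. They were correlated over the 12 arrays for the 36 pairs of members and for each member with Arntl, 45 pairs in all, with exact permutation of arrays within groups (two-sided) and adjustment over the 45. Each group was permuted separately, so these p-values leave out any pairing of same-numbered FGF23 and KL null arrays and may be too small. Dbp and Nr1d2 gave Pearson's r = 0.95 (permutation p = 0.000145, adjusted 0.00653) and Spearman's rho = 0.99 (permutation p = 0.000145, adjusted 0.00653). Without WT vehicle replicates 4 and 1, the arrays farthest from the median of Dbp, r was 0.98. Within groups it was 0.99 for FGF23, 0.94 for KL null and 0.98 for vehicle, each over only 4 arrays. This was the 1 pair of 45 that passed. Array spread also moved with both genes, with r = -0.49 for Dbp and -0.68 for Nr1d2, and its part was not tested. Its r was -0.57 for Nr1d1 and 0.65 for Bhlhe40, and between -0.15 and 0.36 for the other members. Outside the members, the highest r with Dbp was 0.951, that of Olfr836, so an r of this size was not particular to Nr1d2.

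The paralogue Nr1d1 had r = 0.36 with Dbp (permutation p = 0.206, adjusted 0.421) and 0.41 with Nr1d2 (permutation p = 0.176, adjusted 0.396). Within groups its r with Dbp was 0.66 for FGF23, 0.90 for KL null and 0.25 for vehicle, and with Nr1d2 0.67, 0.83 and 0.07 in the same order, each over 4 arrays. These correlations were not tested against that of Dbp and Nr1d2. Dbp and Arntl had r = -0.81 (permutation p = 0.0272, adjusted 0.133) and rho = -0.71 (permutation p = 0.0544, adjusted 0.204). Without WT vehicle replicates 4 and 1 that r was -0.58. Tef and Ciart had r = 0.75 (permutation p = 0.00803, adjusted 0.12) and rho = 0.68 (permutation p = 0.0094, adjusted 0.171), and 0.67 without KL null replicates 1 and 2.

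**Figure D4:**
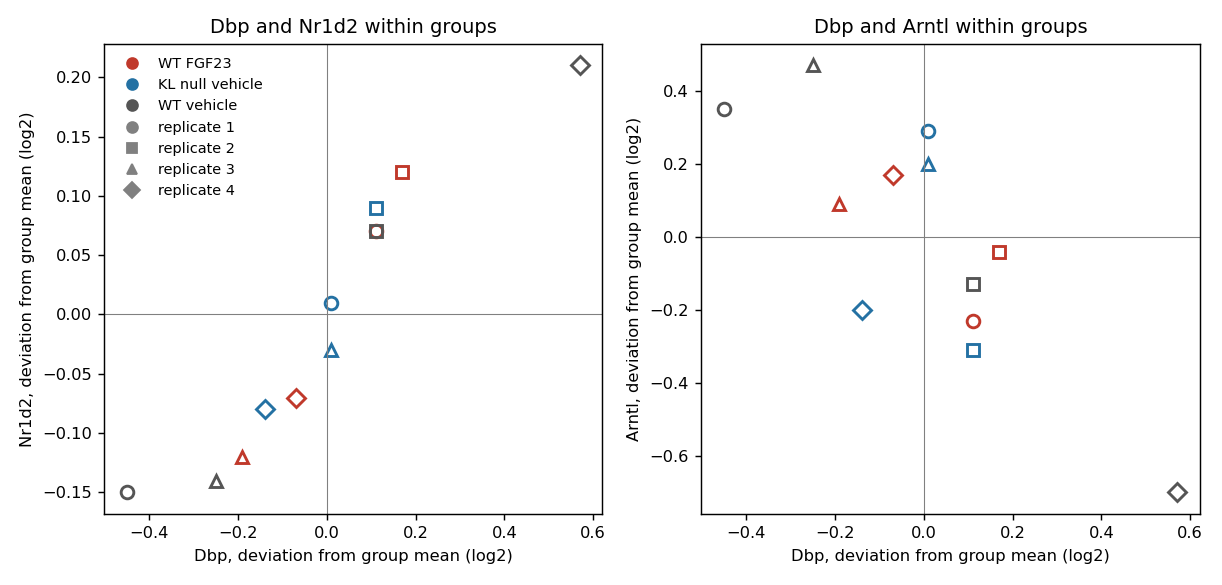
Deviation of each array from its group mean, in log2 units, for Dbp (x axis) against Nr1d2 (left, y axis) and Arntl (right, y axis). Colours mark the group and symbols the replicate number. The 12 points of Dbp and Nr1d2 rise together (r = 0.95), and those of Dbp and Arntl fall (r = -0.81), with WT vehicle replicate 4 at one end of both.

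Each member was also set against the other 19929 genes by the same deviations, as a description. The gene most like Bhlhe40 was Hes1 (r = 0.951), itself a bHLH repressor, and the gene most like Ciart was Retreg1 (0.961). The highest r belonged to Olfr836 for Dbp (0.951), Gm5115 for Tef (0.942), Ppl for Hlf (0.913) and Mcrip1 for Nfil3 (0.96). It belonged to Il18r1 for Bhlhe41 (0.954), Iqck for Nr1d1 (0.935) and C730034F03Rik for Nr1d2 (0.966). The lowest r was that of Sfrp1 with Ciart (-0.985), Lix1l with Dbp (-0.967), Dnajc27 with Tef (-0.96) and Zfp180 with Bhlhe40 (-0.944). For the other members it was Tmem184b with Nr1d2 (-0.942), Vmn2r112 with Nfil3 (-0.936), Rac2 with Bhlhe41 (-0.927), Asap3 with Hlf (-0.922) and Epm2aip1 with Nr1d1 (-0.918). These are the extremes of 19929 correlations over 12 arrays that share their array spread.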

How the data were processed

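The values are log2 signals per probe set, deposited by the authors after RMA. Partek 6.2 is the software in the submitters' processing notes, and background and probe-level settings are not given in the sources used here. RMA shrinks folds where signal is dim. Without scanner data, which were not analysed here, detection above background is unknown. Of 28853 probe sets, 21789 had 1 gene symbol in the platform annotation. Each of 19938 genes took the value of whichever probe set had the greatest mean over 12 arrays, and among the 9 members Ciart alone had several probe sets (2).

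Groups came from the sample titles. Differences were tested across all genes by moderated two-sided tests (lmFit, eBayes) of limma 3.58.1 under R 4.3.3, with 3 group means, 9 residual degrees of freedom and Benjamini-Hochberg adjustment, and the code was tested on simulated data. Figures and tables used Python 3.11.15, pandas 2.3.3 and matplotlib 3.10.9. Over all genes, the deviations of the 4 same-numbered pairs of FGF23 and KL null arrays correlated at 0.143 to 0.259, so the numbers were taken to pair these groups. The main fit held no replicate block, so its p-values between FGF23 and KL null leave that pairing out. The labels do not say what a number marks. Replicates 1 and 2 were also the arrays of low spread in the FGF23 and KL null groups. The part of array spread in the correlations of same-numbered arrays was not tested. Pairs with wild-type vehicle did not all exceed 0.1. Alternatives were other normalizations, moderation, weights, probe set choices, a replicate block and left-out arrays. All 9 members were named in every comparison, with the called and the 2 smallest-p genes of 2 clock lists. The members and lists were chosen with earlier results of these data known. A list was described by its counts and median only. Kl and Egr1 were named as checks, and cell type markers were read as lists. List members without a value under this rule are not reported here. Other treatment arms of the protocol were not analysed here.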

Additional observations from a re-analysis of the deposited data

How the results depend on the processing

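Each of the 27 differences of a member was recomputed under 25 alternatives, and 614 of the 675 values kept direction and side of the threshold. Dbp, Tef and Bhlhe41 kept their calls in KL null against wild type in all 25, and Ciart in 24 (adjusted p 0.000112 to 0.0511, the highest in the unmoderated model). The number of members called after FGF23 was 1, and 0 when only the 2 groups compared were fitted, with each array centred on its median, in the unmoderated model, with a replicate block, and with every probe set tested. It was 0 to 1 with single arrays left out. In KL null it was 5, and 3 in the unmoderated model and 4 to 6 with single arrays left out. Between FGF23 and KL null it was 3. It was 1 in the unmoderated model, 1 without both WT FGF23 arrays of low spread, and 1 to 3 with single arrays left out.

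Signs turned only for differences that were not called. After FGF23, Nfil3 was at 0.01 without WT FGF23 replicate 3 and at 0.03 without WT vehicle replicate 3 (-0.24 to 0.03 with single arrays left out), and Nr1d1 at -0.04 with array spread as a covariate. In KL null, Nr1d1 was at 0.02 without WT vehicle replicate 3 and at 0.09 without KL null replicate 4 (-0.14 to 0.09). Between FGF23 and KL null, Hlf was at -0.01 without the 4 arrays of low spread, an alternative chosen after seeing the data. Nr1d2 there was at 0.02 and 0.003 without WT FGF23 replicates 3 and 4, and at 0.01 without KL null replicate 2 (-0.06 to 0.02). The cause of these changes was not tested.

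Against wild-type vehicle, same-numbered arrays had an r of deviations between -0.216 and 0.191. It was 0.191 with FGF23 and 0.169 with KL null for replicate 2, 0.112 with FGF23 for replicate 3, and negative otherwise. Over the 3 groups, 6 of 12 arrays correlated best with their own number. Whether the numbers pair the vehicle arrays with the others is not known. With the replicate block, members called numbered 0 after FGF23 (Bhlhe40 adjusted p = 0.065), 5 in KL null and 2 between FGF23 and KL null, where Nfil3 alone was lost. Over all genes, 17 were called after FGF23 (2 in the unmoderated model to 19 with trended and robust moderation), 1598 in KL null (828 without WT vehicle replicate 3 to 2852 with array quality weights) and 2386 between FGF23 and KL null (944 without both WT FGF23 arrays of low spread to 3333 with array quality weights).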
